A study of Mus musculus with 2 samples.

Results

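Epithelial cells are held together by tight junctions, adherens junctions, desmosomes and gap junctions, and anchored to their basement membrane by integrins. Here 45 genes of these structures and of the keratin filaments that run between them were described in parietal cells, which secrete acid in the glands of the stomach. The genes were taken from a list of names, with no cutoff on measured values. That list was chosen with earlier results of these data known. All 45 were matched among the 38087 Ensembl identifiers of the deposited tables, 44 by symbol and Par6b through its current symbol Pard6b. Cells had been sorted from stomachs of C57BL/6 mice fed either a control diet or a high fat diet (HFD), and each diet was represented by 1 library of total RNA depleted of ribosomal RNA. The age and sex of the mice, the number pooled, the duration of feeding and the marker that the sort relied on were not given in the sources used here.

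Values are RPKM, read numbers scaled to gene length and to sequencing depth, and a gene at or below 1 RPKM is listed at 0. With 1 library per diet there is no replicate, no spread between mice and no test of diet, so every difference below is between these 2 libraries. Depth, inferred from the smallest step between values, came to 25.49 M reads for HFD and 9.84 M for the control diet. Ratios carry 95% intervals from the estimated reads, which cover counting error only. The proton pump gene Atp4a stood at 4997 RPKM in the HFD library against 4324 in the control library, but Pgc of chief cells stood at 45624 and 102292 RPKM, so RNA of other gastric cells was present. In such bulk samples fewer cells of a type and less RNA per cell cannot be told apart. A listing at 0 is not read as absence, because 8 of 74 ribosomal protein genes, which every cell uses, were also listed at 0 in the HFD library and none in the control library.

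Tight junctions seal the space between neighbouring cells. Claudins form their strands and set which ions pass, occludin and tricellulin are further membrane proteins of the seal, and the ZO proteins and cingulin link it to actin. In the gastric gland this seal keeps secreted acid in the lumen. Adherens junctions rest on E-cadherin and its catenins, desmosomes couple keratin filaments of adjacent cells, and simple epithelia build those filaments from paired type I and type II keratins.

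Of the 45 genes, 35 were listed in both libraries, 4 in the control library alone (Cldn3, Cldn7, Marveld3 and Gja1), none in the HFD library alone, and 6 in neither (Cldn1, Cldn2, Cldn4, Cldn5, Cldn23 and Gjb2). The 35 were abundant: their median level lay at percentile 90.7 of the listed protein-coding genes in the HFD library against 88.0 in the control library. On the log2(RPKM + 1) scale, with a pseudocount of 1 that understates the change of low genes, 1 of the 39 genes listed in either library was over 2-fold higher in the HFD library and 6 were over 2-fold lower. Among 11976 protein-coding genes listed in either library the shares were 8.02% higher and 20.1% lower. The 4 genes listed at 0 in the HFD library are among the 6, and pass 2-fold on this scale by construction. Their share of the 39 was 10.3%, against 12.4% of protein-coding genes listed in the control library alone. By the plain ratio of the 35 genes listed in both libraries, 1 was over 2-fold higher and 2 over 2-fold lower, where the shares of 9997 protein-coding genes were 7.00% and 12.5%.

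Most of the 35 genes differed by less than 2-fold, in both directions. In the HFD library 18 were higher and 17 lower, with a median log2 ratio of 0.04 and quartiles of -0.45 and 0.31. For the 9997 protein-coding genes the median was -0.04, between quartiles of -0.57 and 0.43. These figures include genes of all levels, and abundant genes are counted more exactly, so nothing particular to the junction genes is read from the narrower quartiles. Direction depended on how the libraries were scaled to each other: under 4 other scalings and after removing a trend on gene length and GC content, 5 genes were higher in every case (Cldn12, Marveld2, Dsg2, Dsc2 and Krt20). Another 11 were lower in every case (Tjp1, Tjp3, Cgn, Nectin2, Pard6b, Ctnna1, Ctnnb1, Epcam, Jup, Pkp2 and Krt7), and the remaining 19 changed side in at least 1. The scaling that mattered most equalised the totals without the 20 most abundant genes and shifted all HFD values by -0.61 on the log2 scale. On the log2(RPKM + 1) scale 14 of the 39 genes were then over 2-fold lower and 1 over 2-fold higher. Among 11976 protein-coding genes the shares under that scaling were 32.2% lower and 3.26% higher.

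**Figure D1:**
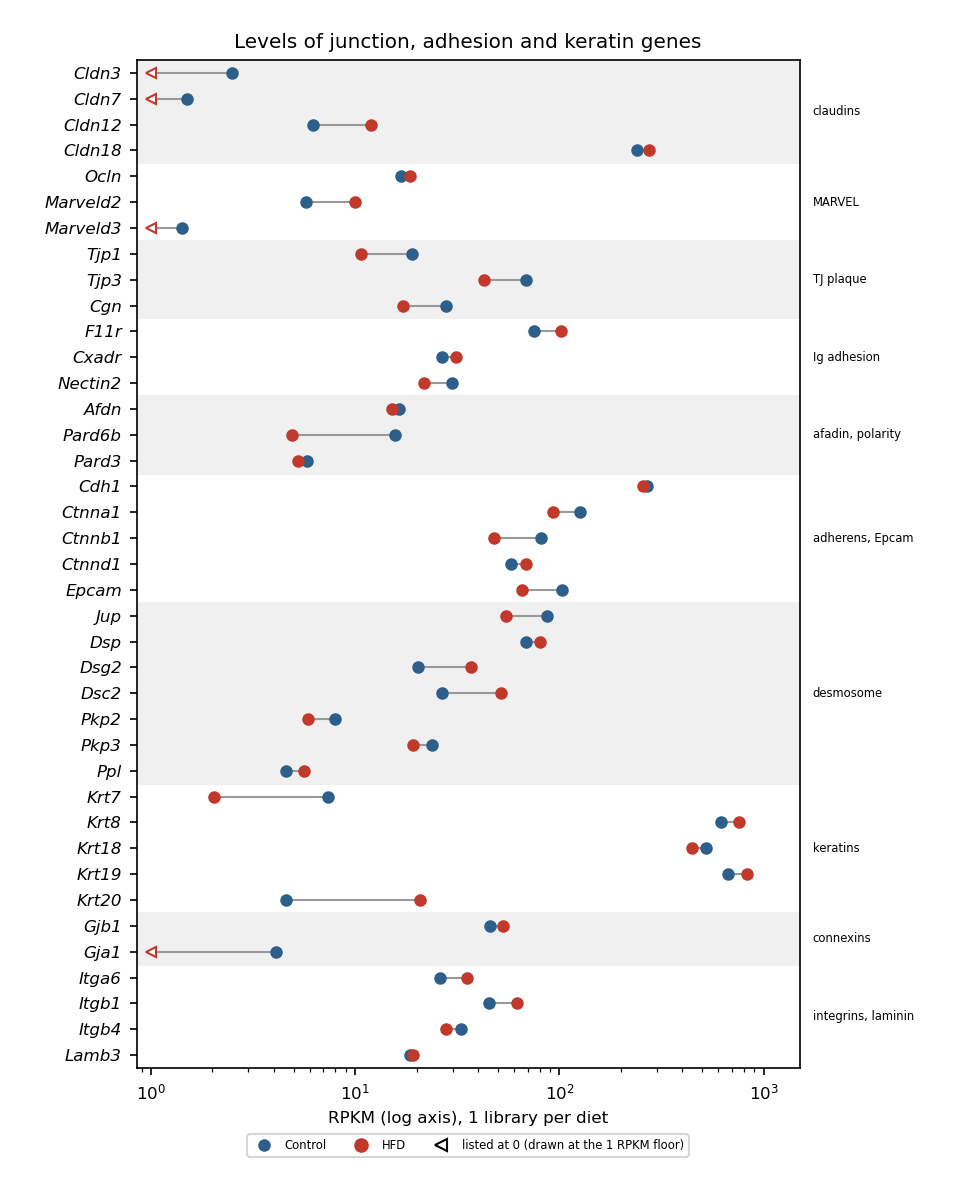
RPKM (log axis) of the 39 genes listed in either library, ordered by role, with 1 red point for the HFD library and 1 blue point for the control library and no error bars, since each diet has 1 library. Krt19, Krt8 and Krt18 stand highest, at 446 to 832 RPKM; open triangles mark genes listed at 0, drawn at the floor of 1 RPKM.

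Among claudins, nearly all of the RNA came from Cldn18, the gene of the gastric claudin. Cldn18 (ENSMUSG00000032473, chromosome 9, 99689461 to 99717267, mm10) stood at 275 RPKM in the HFD library against 240 in the control library. Its ratio was 1.15 (1.12 to 1.17), which turned to 0.753 under the scaling without the 20 most abundant genes. Cldn18 made up 95.8% of the summed RPKM of the 9 claudins in the HFD library against 95.9% in the control library. Measured against Atp4a within each library, a comparison chosen after the values were seen and free of library scaling, Cldn18 was at 0.0551 and 0.0555 of the pump gene's level, a ratio of 0.991 (0.969 to 1.01). Cldn12, a claudin outside the best known barrier set, stood at 12 and 6.25 RPKM, a ratio of 1.92 (1.68 to 2.20), and lay at percentile 91.9 of the ratios of protein-coding genes. Cldn3 and Cldn7, barrier claudins found in many epithelia, stood at 2.50 and 1.50 RPKM in the control library and were listed at 0 in the HFD library. These control values rest on about 30.9 and 28.8 estimated reads. Cldn1, Cldn2, Cldn4, Cldn5 and Cldn23 were listed at 0 in both libraries. Cldn5 is the claudin of endothelium, and of 12 endothelial markers 10 were listed in either library, with summed levels of 46.2 RPKM in the HFD library against 83.7 in the control library.

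Cldn18 is shown by sequence because its value per gene joins the products of separate starts: a form of stomach and a form of lung are known to differ in their first exon. RefSeq gives it 2 start regions on GRCm38.p6, minus strand, which the deposited value does not separate. Each is shown from 250 bases before to 50 bases after the start, with capitals marking matches to the motifs searched (described with the keratins below).
Cldn18, chr9:99710014-99710313: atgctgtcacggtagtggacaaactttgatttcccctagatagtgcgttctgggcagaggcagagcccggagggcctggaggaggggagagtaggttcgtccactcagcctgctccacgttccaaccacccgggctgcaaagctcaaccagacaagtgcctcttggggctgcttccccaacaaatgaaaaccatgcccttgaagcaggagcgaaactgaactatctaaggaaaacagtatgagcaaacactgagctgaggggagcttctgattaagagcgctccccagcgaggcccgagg
Cldn18, chr9:99717218-99717517: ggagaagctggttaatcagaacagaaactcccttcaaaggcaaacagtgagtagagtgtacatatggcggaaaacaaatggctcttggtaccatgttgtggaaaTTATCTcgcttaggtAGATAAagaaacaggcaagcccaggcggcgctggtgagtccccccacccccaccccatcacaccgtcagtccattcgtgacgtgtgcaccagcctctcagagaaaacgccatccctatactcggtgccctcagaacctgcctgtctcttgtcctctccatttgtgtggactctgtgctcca
The first held none of the motifs and the second held 2 matches to the GATA motif.

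Among the other membrane proteins of the tight junction 2 of 3 had higher HFD values as deposited, while the plaque genes had lower ones. Ocln, which encodes occludin, stood at 18.5 RPKM in the HFD library against 16.8 in the control library, which gives a ratio of 1.10 (1.01 to 1.20) that turned to 0.721 under the scaling without the 20 most abundant genes. Marveld2, the gene of tricellulin at 3-cell contacts, stood at 9.94 and 5.77 RPKM, a ratio of 1.72 (1.47 to 2.02). Its relative Marveld3 was listed at 0 for HFD and had 1.42 RPKM in the control library. The 3 plaque genes were all lower in the HFD library. Tjp1, which encodes the founding ZO scaffold, stood at 10.6 and 19.0 RPKM, 1.78 times lower (1.67 to 1.91). Tjp3, its most abundant relative here, stood at 42.9 and 68.4 RPKM, 1.60 times lower (1.52 to 1.68). Cgn, the gene of cingulin, stood at 17.1 and 28.0 RPKM, 1.64 times lower (1.54 to 1.74). The cingulin paralog Cgnl1, which was not on the list of 45 and was named after its values were seen, stood at 14.3 and 9.96 RPKM. Within a library, where scaling plays no part, Ocln stood at 1.74 times the level of Tjp1 in the HFD library against 0.887 times in the control library, and Cldn18 at 6.42 and 3.51 times the level of Tjp3. Tjp3 and Tjp1 kept a similar proportion to each other, 4.03 and 3.60. These pairs were chosen after the values were seen. The length and GC trend, unlike scaling, can change such proportions. With that trend removed the ratios were 1.15 for Cldn18, 0.954 for Ocln, 0.835 for Tjp3 and 0.528 for Tjp1. Cldn18 and Tjp3 then lie closer together, and Tjp3 and Tjp1 further apart.

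Adhesion receptors of the immunoglobulin family sit beside the claudins. F11r, which encodes JAM-A, stood at 102 RPKM in the HFD library against 75.1 in the control library, which gives a ratio of 1.36 (1.29 to 1.43). Cxadr, the coxsackievirus and adenovirus receptor, stood at 31.2 and 26.6 RPKM, a ratio of 1.17. Both ratios turned below 1 under the scaling without the 20 most abundant genes (0.893 and 0.771). Nectin2, a nectin of the adherens junction, stood at 21.7 and 29.8 RPKM, 1.37 times lower in the HFD library. Afdn, the gene of afadin that ties nectins to actin, stood at 15.2 and 16.4 RPKM, and the polarity scaffold gene Pard3 at 5.26 and 5.85 RPKM. Both were slightly lower in the HFD library as deposited (ratios of 0.925 and 0.900) and higher under the scaling to equal protein-coding totals (1.13 and 1.10). Pard6b (Par6b; ENSMUSG00000044641, chromosome 2, 168081004 to 168101203), which encodes an adaptor of the atypical protein kinase C complex that sets the apical domain, stood out from these. It stood at 4.91 RPKM in the HFD library against 15.6 in the control library, 3.18 times lower (2.80 to 3.63), on 425 and 522 estimated reads. That ratio lay at percentile 3.94 of protein-coding genes and stayed 2.60 to 4.85 times lower in the alternatives. Its paralog Pard6a stood at 10.7 and 8.18 RPKM, and the kinase gene Prkci at 13.3 and 8.28 RPKM; both were named after their values were seen.

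The adherens junction was led by Cdh1, the gene of E-cadherin (ENSMUSG00000000303, chromosome 8, 106603351 to 106670246), at 256 RPKM in the HFD library against 270 in the control library. Its ratio of 0.95 (0.930 to 0.970) changed side under the scaling to equal protein-coding totals (1.16). The catenins did not share its position. Ctnnb1, the gene of beta-catenin that binds the cadherin tail and also serves Wnt signalling, stood at 47.8 and 81.3 RPKM, 1.70 times lower in the HFD library (1.64 to 1.77). Ctnna1, the gene of alpha-catenin that links the complex to actin, stood at 92.7 and 126 RPKM, 1.36 times lower (1.32 to 1.40). Ctnnd1, the gene of the delta-catenin that stabilises cadherin at the surface, stood at 69.0 and 57.7 RPKM, a ratio of 1.20 (1.16 to 1.24) that turned to 0.786 without the 20 most abundant genes. Within a library Cdh1 stood at 5.36 times the level of Ctnnb1 in the HFD library against 3.32 times in the control library, so the proportion was 1.62 times larger (1.55 to 1.69). For Ctnna1 the proportions were 2.76 and 2.14, and for Ctnnd1 they were 3.71 and 4.68. Epcam, the epithelial adhesion gene often used for sorting, stood at 65.6 and 103 RPKM, 1.57 times lower (1.49 to 1.66). In the annotation Ctnnd1 shares 61.2% of its exon bases with the read-through gene Gm28635, and Ctnnb1 shares 14.6% with Ulk4 on the other strand, which was listed at 0 in both libraries; the sources used here do not say how shared reads were counted.

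**Figure D2:**
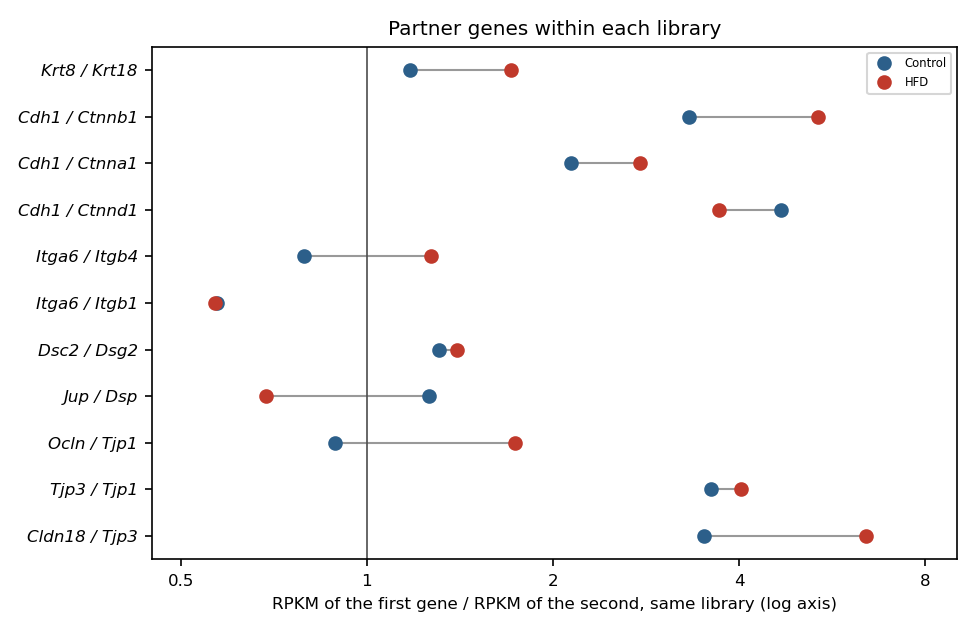
Level of 1 gene as a multiple of a partner gene in the same library (log axis), red for the HFD library and blue for the control library, 1 library each. Cdh1 over Ctnnb1, Itga6 over Itgb4, Ocln over Tjp1 and Cldn18 over Tjp3 lie further right in the HFD library, Jup over Dsp lies further left (0.687 against 1.26), and Itga6 over Itgb1 and Dsc2 over Dsg2 nearly coincide.

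Both desmosomal cadherins were higher in the HFD library and plakoglobin was lower, under every scaling tried. Dsc2, a desmocollin, stood at 51.7 RPKM in the HFD library against 26.7 in the control library, which gives a ratio of 1.94 (1.83 to 2.06). Dsg2, the desmoglein of simple epithelia, stood at 36.9 and 20.4 RPKM, a ratio of 1.81 (1.72 to 1.91). The pair lies on the same chromosome with 499 kb between the genes, and the level of Dsc2 was 1.40 and 1.31 times that of Dsg2, a difference in proportion of 1.07 times (0.990 to 1.16). Jup, the gene of plakoglobin, which binds the tails of both desmosomal and classical cadherins, stood at 55.0 and 86.8 RPKM, 1.58 times lower in the HFD library (1.53 to 1.63). Dsp, the gene of desmoplakin that anchors keratin filaments, stood at 80.0 and 68.9 RPKM, a ratio of 1.16 (1.13 to 1.19) that turned to 0.763 without the 20 most abundant genes. Jup thus stood at 0.687 times the level of Dsp in the HFD library against 1.26 times in the control library, 1.83 times lower in proportion (1.76 to 1.92). With the length and GC trend removed the ratios were 0.785 for Jup and 1.20 for Dsp, which lie closer together. Of the plakophilins, which strengthen the plaque, Pkp3 stood at 19.3 and 23.7 RPKM and Pkp2 at 5.88 and 8.01 RPKM. Pkp2 was lower in every alternative, Pkp3 (ratio 0.813) was not. Ppl, the gene of periplakin, stood at 5.63 and 4.58 RPKM, a ratio of 1.23 that turned to 0.808 without the 20 most abundant genes. Of 17 squamous markers, among them desmosomal genes of stratified epithelium, 11 were listed at 0 in both libraries, including Dsg3, Dsc3, Krt14, Krt13, Trp63 and Col17a1; the summed level was 46.6 RPKM in the HFD library against 29.9 in the control library. Most of the HFD sum came from Sprr1a, a gene of the cornified envelope (17.5 and 3.91 RPKM), and Sfn (16.1 and 20.2 RPKM), and most of the control sum from Sfn.

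Keratins Krt19, Krt8 and Krt18 were the most abundant of the 45 genes. Krt19, a type I keratin of simple and ductal epithelium (ENSMUSG00000020911, chromosome 11, 100140810 to 100148665), stood at 832 RPKM in the HFD library against 667 in the control library, which gives a ratio of 1.25 (1.22 to 1.27). Krt8, the type II keratin of simple epithelia (ENSMUSG00000049382, chromosome 15, 101996698 to 102004482), stood at 762 and 616 RPKM, a ratio of 1.24 (1.21 to 1.26). Krt18, its usual type I partner (ENSMUSG00000023043, chromosome 15, 102028180 to 102032027), stood at 446 and 524 RPKM, a ratio of 0.851 (0.828 to 0.875). The direction of each depended on scaling: Krt19 and Krt8 turned to 0.819 and 0.813 without the 20 most abundant genes, and Krt18 to 1.04 when protein-coding totals were equalised. Relative to each other, Krt8 stood at 1.71 times the level of Krt18 in the HFD library against 1.18 times in the control library, a proportion 1.45 times larger (1.41 to 1.50). Krt8 and Krt19, compared after their values were seen, kept theirs (0.916 and 0.924). Summed over Krt18, Krt19 and Krt20, type I keratins were 1.70 times the type II sum of Krt7 and Krt8 in the HFD library against 1.92 times in the control library. Keratin genes have processed pseudogenes, and the sources used here do not say how reads shared with them were counted.

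The largest differences among the keratins lay in the least abundant ones, and they were opposite. Krt20, a type I keratin typical of gastric surface and intestinal epithelium (ENSMUSG00000035775, chromosome 11, 99428403 to 99438150), stood at 20.8 RPKM in the HFD library against 4.61 in the control library. Its ratio of 4.51 (3.64 to 5.71) was the highest of the 35 genes and lay at percentile 99.5 of protein-coding genes, on 1022 and 87.4 estimated reads; the alternatives gave 2.96 to 5.53. Of 10 genes listed as markers of pit cells, the mucous cells of the gastric surface, 7 were higher in the HFD library and 3 lower. Their summed level was 37095 RPKM in the HFD library against 15092 in the control library. These genes did not share 1 ratio: Gkn1, the most abundant, had 4.33 (21736 and 5021 RPKM), Capn9 4.03, Gkn2 2.38, Tff1 0.986 and Fut2 0.749. Psca was nearly level at 2730 and 2675 RPKM. Gkn3, whose place among pit markers is less certain, had 0.346. The part of pit cells in the Krt20 value was not tested. Krt7, a type II keratin of ductal and some glandular epithelia, stood at 2.03 and 7.34 RPKM (ENSMUSG00000023039, chromosome 15, 101411043 to 101430313), 3.62 times lower in the HFD library (3.16 to 4.16), on 364 and 509 estimated reads. The alternatives gave 2.96 to 5.52 times lower. Of 6 mesothelial markers, another cell type with Krt7, 5 were listed at 0 in both libraries, Msln, Upk3b and Wt1 among them, and Gpm6a stood at 17.3 and 10.1 RPKM. Of 12 pancreatic acinar markers all were lower in the HFD library, 9 of them listed at 0 there. Their summed level was 1880 RPKM in the HFD library against 13690 in the control library. Most of it was Clps (1790 and 12989 RPKM), and Cela1 was nearly level (83.6 and 92.9 RPKM). No list of ductal markers was read, and the part of pancreatic tissue in the Krt7 value was not tested.

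**Figure D3:**
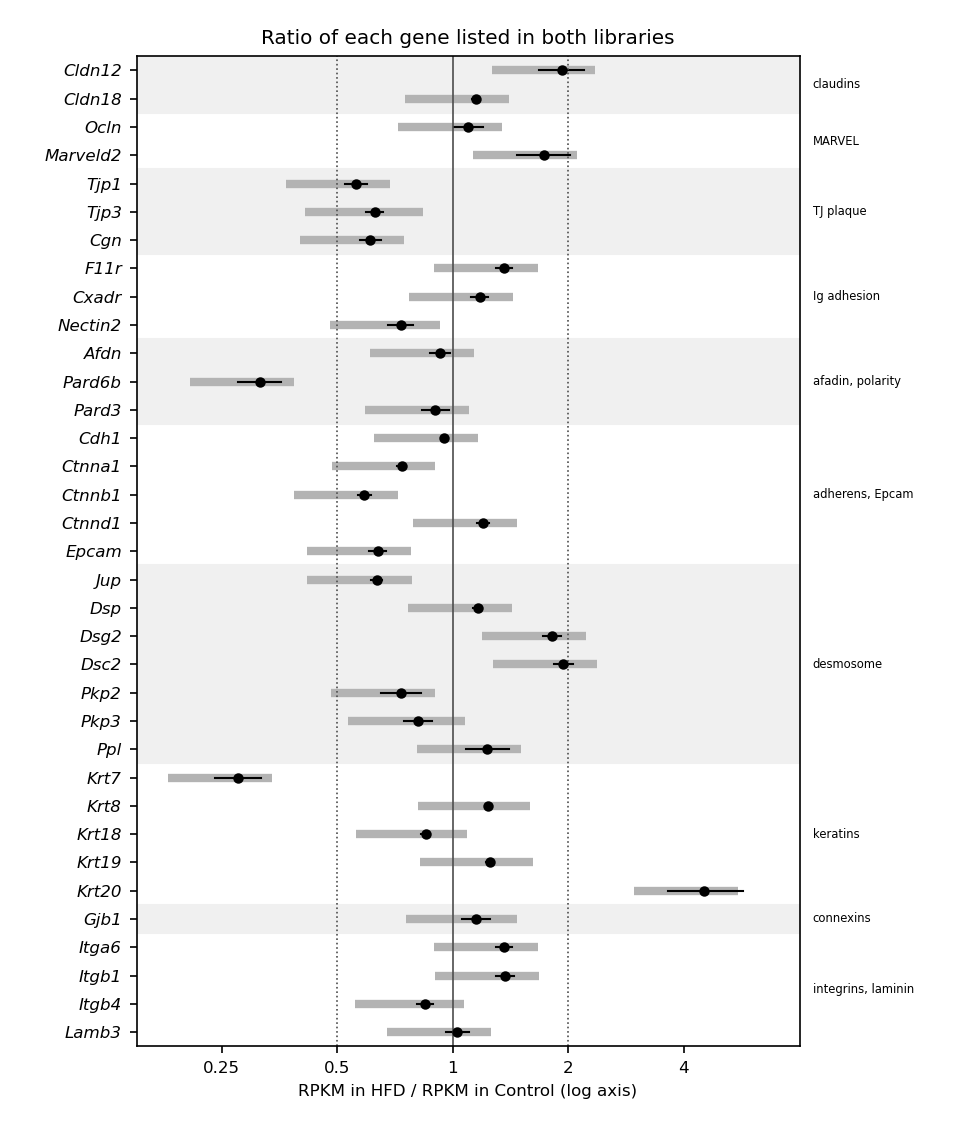
RPKM in the HFD library divided by RPKM in the control library (log axis) for the 35 genes listed in both, as points with 95% counting intervals (thin black bars) and the range under 4 other scalings and the length and GC trend (wide grey bars); dotted lines mark 2-fold. Krt20 (4.51), Krt7 (0.276) and Pard6b (0.314) lie beyond 2-fold with their grey bars, and most grey bars cross 1.

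Start regions of the partners Krt8 and Krt18 and of Krt20 are shown because these neighbouring or related genes had unlike ratios. Krt8 and Krt18 lie 23.7 kb apart on chromosome 15 on opposite strands. The RefSeq regions on GRCm38.p6 run from 250 bases before to 50 after the start, in the direction of transcription (Krt8 and Krt20 minus strand, Krt18 plus strand).
Krt8, chr15:102004293-102004592: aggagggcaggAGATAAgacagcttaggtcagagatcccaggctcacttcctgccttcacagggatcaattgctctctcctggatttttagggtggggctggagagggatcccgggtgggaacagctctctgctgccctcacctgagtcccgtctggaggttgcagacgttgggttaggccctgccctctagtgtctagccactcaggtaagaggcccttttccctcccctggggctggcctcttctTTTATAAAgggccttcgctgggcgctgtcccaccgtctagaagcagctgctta
Krt18, chr15:102027966-102028265: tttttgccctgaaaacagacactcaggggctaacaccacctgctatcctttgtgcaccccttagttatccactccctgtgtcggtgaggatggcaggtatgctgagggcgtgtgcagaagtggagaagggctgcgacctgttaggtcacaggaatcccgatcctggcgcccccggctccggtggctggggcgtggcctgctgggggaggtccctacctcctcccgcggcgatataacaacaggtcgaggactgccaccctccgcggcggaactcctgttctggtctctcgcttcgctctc
Krt20, chr11:99438104-99438403: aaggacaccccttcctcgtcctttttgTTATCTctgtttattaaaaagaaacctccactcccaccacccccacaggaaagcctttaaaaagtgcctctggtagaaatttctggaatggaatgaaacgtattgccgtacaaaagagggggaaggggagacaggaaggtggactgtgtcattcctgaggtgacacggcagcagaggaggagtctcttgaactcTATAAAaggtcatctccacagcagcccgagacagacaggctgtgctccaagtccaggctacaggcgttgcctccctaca
Capitals mark matches on either strand to the motifs TATAAA (the TATA box), GGGCGG (the GC box), TGANTCA (the site of AP-1 factors) and AGATAA (a site of GATA factors). Krt8 held TATAAA in overlapping matches on both strands, beginning at -3 and -1 bases from the annotated start, and AGATAA once. Krt20 held TATAAA once, beginning at -29, and AGATAA once, and Krt18 held none of the 4. Of all 32851 start regions of this length in the table, 13.6% held TATAAA, 35.7% GGGCGG, 7.81% TGANTCA and 11.2% AGATAA. Among 46 start regions found for 32 of the 45 genes the shares were 19.6%, 58.7%, 6.52% and 10.9%. A match is a description of the letters and says nothing about binding in these cells.

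Connexins and matrix receptors complete the set. Gjb1, the connexin of hepatic and gastric gland gap junctions, stood at 52.8 RPKM in the HFD library against 46.0 in the control library, which gives a ratio of 1.15 (1.06 to 1.25) that turned to 0.754 without the 20 most abundant genes. Its frequent partner Gjb2 was listed at 0 in both. Gja1, the connexin of muscle, fibroblasts and many other cells (ENSMUSG00000050953, chromosome 10, 56377330 to 56402513), was listed at 0 for HFD and had 4.09 RPKM in the control library, on about 413 estimated reads. Markers of fibroblasts and of smooth muscle stood beside it: all 10 fibroblast genes had lower HFD values, with summed levels of 60.1 and 175 RPKM, and all 9 smooth muscle genes, with 34.4 and 221 RPKM. Their part in the Gja1 value was not tested. Itga6, the integrin subunit that pairs with Itgb4 in hemidesmosomes, stood at 35.2 and 25.9 RPKM, a ratio of 1.36 (1.30 to 1.42). Itgb4 stood at 27.8 and 32.8 RPKM, a ratio of 0.846 (0.805 to 0.890) that reached 1.07 in an alternative. Itga6 was therefore 1.27 times the level of Itgb4 in the HFD library against 0.790 times in the control library, a proportion 1.60 times larger (1.50 to 1.72). With the length and GC trend removed the ratios were 1.33 for Itga6 and 1.07 for Itgb4, which lie closer together. Itgb1, the common beta subunit and alternative partner of Itga6, stood at 62.0 and 45.3 RPKM. Itga6 stood at a similar multiple of Itgb1 in each library (0.569 and 0.572). Itga6 and Itgb1 turned below 1 without the 20 most abundant genes (0.892 and 0.898). Lamb3, a chain of the laminin that these integrins bind, stood at 19.2 and 18.6 RPKM, a ratio of 1.03 (0.962 to 1.10), the only counting interval of the 35 that included 1.

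**Figure D4:**
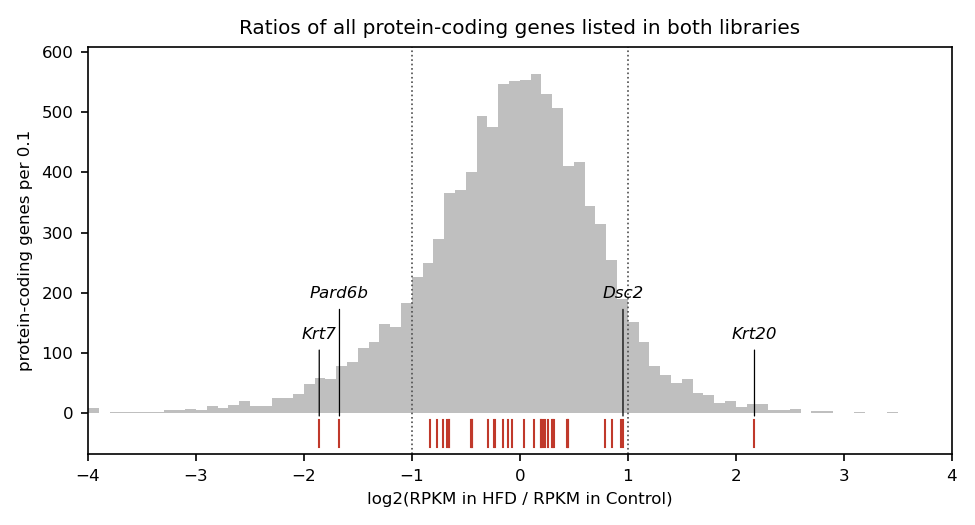
Number of protein-coding genes per 0.1 of log2 ratio (grey bars, 9997 genes listed in both libraries, values beyond the axis placed in the end bars), with red ticks below for the 35 junction, adhesion and keratin genes and dotted lines at 2-fold. All but Krt7, Pard6b and Krt20 lie between the dotted lines.

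Other genes of these structures were read from lists chosen by function. Of 170 matched genes in 8 lists, 105 had a value in at least 1 library; 7 were over 2-fold higher in the HFD library and 22 over 2-fold lower on the log2(RPKM + 1) scale, with a median of -0.08. The shares of protein-coding genes on that scale were 8.02% and 20.1%. A listing at 0 for HFD accounts for 19 of the 22, and one at 0 for the control diet for 5 of the 7. By the plain ratio of the 81 genes listed in both libraries the balance was the other way, with 6 over 2-fold higher and 3 lower, where protein-coding genes had 7.00% and 12.5%. Counts by list below are on the log2(RPKM + 1) scale. Among 29 other tight junction and polarity genes 13 were higher, 2 of them over 2-fold, and 16 lower, 4 of them over 2-fold, with Llgl2 (45.7 against 58.6 RPKM) and Ybx3 (47.0 against 55.7 RPKM) the most abundant and Pard3b the highest in ratio at 2.47 (6.29 against 2.54 RPKM). Of 17 further claudin genes 6 were listed in either library; Cldnd1, a claudin-domain gene, stood at 15.6 and 11.4 RPKM and Cldn8 at 3.81 and 3.97 RPKM. Of 20 other adherens junction genes none was over 2-fold higher and 3 were over 2-fold lower, although the plain ratio of Ceacam1, an adhesion receptor, was 2.38 (1.93 to 2.95; 4.37 against 1.84 RPKM). Actn4, an actin crosslinker, stood at 122 and 136 RPKM and Pkp4 at 36.4 and 29.3 RPKM, while Nectin1 was listed at 0 for HFD and had 6.51 RPKM in the control library. Of 3 other desmosome genes listed, Perp, a desmosomal membrane protein, stood at 49.7 and 30.8 RPKM and Evpl at 6.19 and 8.62 RPKM. The only one over 2-fold lower was Pkp1, at 1.00 RPKM in the control library. It was listed at 0 for HFD, and so passes 2-fold by construction. All 8 other keratins listed were higher in the HFD library as deposited. Krt4, listed at 0 in the control library, was the only one over 2-fold on that scale, while plain ratios were 2.29 for Krt17, 2.23 for Krt79 and 2.15 for Krt10, all below 5 RPKM. The shift of -0.61 would put the 2 most abundant below 1 in ratio: Krt23 at 57 and 56.1 RPKM and Krt80 at 9.08 and 6.62 RPKM. Of the other connexins and pannexins 3 of 18 were listed, none above 5 RPKM, with Panx1 at 2.76 and 4.01 RPKM and Gja4 at 2.98 RPKM in the HFD library alone. Among 21 other integrin, laminin and hemidesmosome genes 9 were over 2-fold lower, 8 of them listed at 0 for HFD and the other being Lamb1 (1.43 and 5.43 RPKM). The 1 over 2-fold higher was the plakin Dst, at 37.1 and 17.1 RPKM (ratio 2.18, 2.12 to 2.23). Dag1, the dystroglycan gene, stood at 86.1 and 93.0 RPKM, the plakin Plec at 38.9 and 38.5 RPKM, and the basement membrane gene Nid1 at 0 and 7.03 RPKM.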

How the data were processed

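The authors deposited 1 table per library with a column headed RPKM, per the file headers. The deposited numbers are log2 RPKM with no pseudocount, judged from their range and steps, with genes at or below 1 RPKM listed as 0. Reads of sorted cells were mapped to mm10, and bedtools 2.25.0 is named, per the submitters' processing notes; aligner, counting rule and annotation release were not given in the sources used here. Symbols, positions and exon lengths came from GENCODE M21 on GRCm38 (36308 of 38087 identifiers matched) and start regions from RefSeq on GRCm38.p6.

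Depth was taken from the step between values of single-exon genes (50.0% and 35.4% of values up to 12 steps lay within 0.005 of a whole step in the HFD and control library), and reads as RPKM times exon length times depth. Ratios carry exact conditional binomial 95% intervals. Proportions between genes carry intervals from the same reads by error propagation. They are free of library scaling, but their intervals leave out the length and GC trend, which can differ between the genes of a pair. All these intervals are approximate, since exon lengths come from another annotation release. The calculation was tested on simulated data with counting error only. The simulation used the same exon lengths throughout, so it could not show the effect of a difference in lengths. No test of diet was possible with 1 library per diet, so the planned form for normalized values without replicates was used. The junction genes and all lists were chosen with earlier results of these data known. Values are given for every junction gene. Intervals were planned for the 6 most abundant, those over 2-fold and obligate partners, and some are added. From each list of related genes the 2 most abundant and the highest and lowest of at least 5 RPKM are named, except some not reported here; genes said to be chosen after their values were seen are additional. The alternatives were a pseudocount of 0.1 RPKM, 0 entered as 1 RPKM, other minimums, 4 scalings and, added after the data were seen, removal of a trend on exon length and GC content. Python 3.11.15, numpy 2.4.6 and scipy 1.17.1 were used.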

Additional observations from a re-analysis of the deposited data

How the results depend on the processing

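The median log2(RPKM + 1) difference of the genes listed in either library was -0.11. It became 0.038 where at least 5 RPKM was required, 0.04 among those listed in both, 0 with no minimum, -0.67 with HFD values scaled to equal totals without the 20 most abundant genes, 0.17 with equal protein-coding totals and 0.0199 with the length and GC trend removed, an alternative added after the data were seen. Protein-coding genes moved likewise, to -0.61 without the 20 most abundant genes and 0.14 with equal protein-coding totals. Genes over 2-fold lower numbered 6, beside 20.1% of protein-coding genes. They were 2 at a minimum of 5 RPKM and 2 among genes listed in both, since fewer genes enter. The protein-coding share was 12.5% in each of these settings. Without the 20 most abundant genes they were 14, beside 32.2% of protein-coding genes. Genes over 2-fold higher numbered 1, beside 8.02% of protein-coding genes. They were 2 with equal protein-coding medians (share 8.84%) and 4 with equal protein-coding totals (share 12.4%). Of 35 genes listed in both, 18 were higher in the HFD library, and 5 without the 20 most abundant genes. A gene over 2-fold in ratio cannot change direction under the scalings, which shifted log2 values by -0.61 to 0.29. With the length and GC trend removed, the ratios of these genes were 4.90 for Krt20, 0.365 for Pard6b and 0.297 for Krt7. The depth limits low genes most: among genes listed in both libraries the fewest estimated reads were 364 for HFD and 87.4 for the control diet. No replicate could be left out with 1 library per diet.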

Other observations

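Among regulators of epithelial junction genes, Spint2, a protease inhibitor of epithelial surfaces, had the highest level, at 276 RPKM in the HFD library against 331 in the control library, and the epithelial transcription factor gene Elf3 at 149 and 159 RPKM. Prss8, a membrane serine protease, was 1.92 times lower in the HFD library (1.76 to 2.10; 25.5 against 49.2 RPKM), and the transcription factor gene Ovol1 had a ratio of 1.74 (6.94 against 3.99 RPKM). Of 20 genes in this list 15 were listed in either library. On the log2(RPKM + 1) scale 2 were over 2-fold lower for HFD and none over 2-fold higher. The shares of protein-coding genes on that scale were 20.1% lower and 8.02% higher. Both lower genes were listed at 0 for HFD, and so pass 2-fold by construction. By listing alone, which is not read as absence, Snai2, Zeb1, Zeb2 and Twist1, repressors of Cdh1 in mesenchymal cells, were listed at 0 in both libraries, and Snai1 was listed at 1.12 RPKM in the control library alone; these 5 were named after their values were seen.

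Summed levels of the marker lists not given so far follow. Endocrine markers summed to 1212 RPKM in the HFD library against 8314 in the control library, and chief cell markers to 46051 and 102874 RPKM. Cycling genes summed to 98.3 and 240 RPKM and mucous neck markers to 7505 and 8516 RPKM. Intestinal markers summed to 1738 and 1355 RPKM, leukocyte markers to 46.8 and 12.6 RPKM, and parietal markers to 14016 and 11062 RPKM. Few genes carry several of these sums. In the intestinal list Apoa1 alone stood at 1576 and 1260 RPKM. Cdx1, Cdx2, Muc2 and Cdh17 of that list were listed at 0 in both libraries. Of 21 leukocyte markers 12, Ptprc among them, were listed at 0 in both libraries. Of the other 9, 8 were higher in the HFD library and 1 lower. Cd74 (14.8 and 5.11 RPKM) and H2-Aa (11.2 and 1.67 RPKM) stood highest. Atp4a and Atp4b carry most of the parietal sum, and Pgc nearly all of the chief cell sum. The 3333 protein-coding genes with the shortest exon length had a median log2 ratio of -0.17 and the 3332 with the longest one of 0.09.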
